A study of Mus musculus with 160 samples.

Results

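The genes described here encode 10 enzymes and enzyme subunits that carry sulfur from dietary methionine to cysteine, taurine and glutathione: Mat1a, Gnmt, Ahcy, Bhmt, Cbs, Cth, Cdo1, Csad, Gclc and Gclm. They were picked by name rather than by a measured value, although earlier results of these data were known. They are 10 of the 56980 genes in the deposited tables. RNA was measured by sequencing in 160 libraries from liver, quadriceps muscle, brown adipose, subcutaneous adipose and visceral adipose tissue of 35 male mice, 29 of which gave all 5 tissues. The mice were of 4 inbred strains (SJL, DBA/2J, A/J and C57BL/6J), were 12 weeks old when their diet was changed, ate an American, Mediterranean, vegetarian or vegan diet for 6 weeks, and were 18 weeks old at harvest. All mice had eaten chow before, and the 4 diets had equal calories and macronutrients drawn from different foods. Each tissue has 2 mice for each of the 16 strain and diet combinations, so a strain or a diet is 8 libraries per tissue. No library here is from a mouse kept on chow, so each diet is compared with another, with the American diet as the reference.

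Methionine is turned into S-adenosylmethionine, the donor for most methylation reactions in a cell, and the product left after methyl transfer is split to homocysteine. Homocysteine is either methylated back to methionine or passed down the transsulfuration pathway to cysteine, which feeds taurine, sulfate and glutathione. Liver is the main site of this metabolism. Mat1a makes S-adenosylmethionine in hepatocytes; Gnmt uses it to methylate glycine and so disposes of excess methyl groups; Ahcy splits S-adenosylhomocysteine; and Bhmt remethylates homocysteine with betaine, a breakdown product of choline. Cbs and Cth are the transsulfuration enzymes. Cdo1 oxidises cysteine and Csad decarboxylates the product on the way to taurine, while Gclc and Gclm are the catalytic and modifier subunits of the rate-limiting enzyme of glutathione synthesis.

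In GRCm39, the genome build of the files, with GENCODE annotation, Mat1a lies on chromosome 14 (40826926 to 40846384, plus strand), Gnmt on 17 (47036587 to 47040107, minus), Ahcy on 2 (154901230 to 154916422, minus), Bhmt on 13 (93753183 to 93774469, minus) and Cbs on 17 (31827868 to 31856646, minus). Cth lies on chromosome 3 (157599868 to 157630739, minus), Cdo1 on 18 (46842652 to 46861627, minus), Csad on 15 (102085432 to 102113498, minus), Gclc on 9 (77661797 to 77701770, plus) and Gclm on 3 (122039126 to 122065061, plus).

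Ahcy and Bhmt have near-identical copies elsewhere in the genome, and these decide how far their counts can be read. The coding sequence of Ahcy differs from that of Ahcyl, an intronless copy on chromosome 16, at 4 of 1296 bases (99.69% identity), and 70.97% of all 150-base stretches, the length of a read, are the same in both. The stretch below (coding bases 446 to 535 counted from 1 at the start codon, chr2:154906757-154906846 and chr16:45974841-45974930, both minus strand) holds 2 of those 4 differences, C459T and G474A, in capitals.
Ahcy: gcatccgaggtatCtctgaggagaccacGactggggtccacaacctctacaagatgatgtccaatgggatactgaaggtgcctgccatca
Ahcyl: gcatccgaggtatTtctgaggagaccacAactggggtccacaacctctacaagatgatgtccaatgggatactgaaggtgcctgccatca
Bhmt differs from the pseudogene Bhmt-ps1 on chromosome 4 at 13 of 1221 coding bases (98.94% identity), with 25.19% of 150-base stretches the same. The stretch below (coding bases 935 to 1024, chr13:93756603-93756692 and chr4:26369184-26369273, both minus strand) holds G970T, A978G and C1014T, again in capitals.
Bhmt: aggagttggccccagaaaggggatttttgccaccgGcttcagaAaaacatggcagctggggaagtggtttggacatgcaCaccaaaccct
Bhmt-ps1: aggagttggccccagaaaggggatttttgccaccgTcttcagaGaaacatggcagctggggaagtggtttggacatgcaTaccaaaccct

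Gclc and Gclm encode the subunits of 1 enzyme, and the data bear on whether they moved together, so the 250 bases before each transcription start are shown (chr9:77661547-77661796 and chr3:122038876-122039125, plus strand). Capitals mark the letters TATAAA in the Gclc window, at -12 to -7 from the annotated start. In the Gclm window they mark CCAAT on the other strand and GCACCGTCA, which read on the other strand is TGACGGTGC. The latter is a match to the antioxidant response element core TGACNNNGC. All are matches of letters, and whether they act was not tested.
Gclc promoter: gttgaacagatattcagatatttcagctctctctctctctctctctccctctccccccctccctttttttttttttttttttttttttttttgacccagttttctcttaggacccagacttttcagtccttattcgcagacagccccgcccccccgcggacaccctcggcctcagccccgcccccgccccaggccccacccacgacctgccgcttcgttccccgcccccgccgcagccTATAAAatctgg
Gclm promoter: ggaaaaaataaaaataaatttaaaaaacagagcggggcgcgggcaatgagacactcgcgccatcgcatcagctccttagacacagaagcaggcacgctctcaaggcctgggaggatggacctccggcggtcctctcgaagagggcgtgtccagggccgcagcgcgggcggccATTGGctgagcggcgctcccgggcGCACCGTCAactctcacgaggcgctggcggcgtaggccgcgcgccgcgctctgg
The element core was found on either strand of 9.69% of 21770 promoters of this length, TATAAA in 11.9% and CCAAT in 36.5%. The core was present before Gclm and Cdo1, TATAAA before Gclc, and the E-box CACGTG, found in 6.26% of promoters, before Cbs and Cth. CCAAT was present before Mat1a, Gnmt, Ahcy, Bhmt, Cbs, Cth and Gclm. TGATGNAA, the C/EBP-ATF element, present in 3.39% of promoters, was in none of the 10 windows.

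Library totals ran from 18.6 to 29.9 M (1000000) counts in liver (median 23.4 M) and had medians between 21.6 and 24.9 M in the other tissues. The 10 genes passed the filter on low counts in all 5 tissues. The defining marker of each tissue was present (Ckm in muscle at a median of 13307 CPM, counts per 1000000 of the library, and Ucp1 in brown adipose at 7584), but many of the other libraries also held liver transcripts. Albumin stood at 0.0105 to 42.8% of its liver mean in muscle, 0.00201 to 21.4% in brown, 0.0206 to 54.4% in subcutaneous and 0.0110 to 62.2% in visceral adipose tissue. It was over 10% in 8, 4, 4 and 9 of 32 libraries, respectively. Strain results outside liver are therefore given also without the libraries of high albumin or, in white adipose tissue, of absent depot marker (8 muscle, 4 brown, 5 subcutaneous and 10 visceral libraries), called the reduced set below.

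The shares of the gene copies separate strains in liver, and they were therefore read in the libraries with liver transcripts. In all 8 A/J livers Bhmt-ps1 made up 4.24 to 5.14% of the Bhmt and Bhmt-ps1 count, against 0.0939 to 0.343% in the 24 livers of the other strains. Among 19 A/J libraries of other tissues with at least 100 Bhmt counts, however, 16 lay under the lowest A/J liver, and their range reached down to 0.0771%. The muscle library of A/J mouse 17 had albumin at 19.4% of liver and a Bhmt-ps1 share of 0.121% (Wilson 95% interval 0.0837 to 0.175%), while the brown adipose library of the same mouse had 5.02% (4.49 to 5.61%). Conversely, 3 of 62 such libraries of the other strains reached the A/J liver range, 1 of them the brown adipose library of DBA/2J mouse 42 at 5.29% (4.74 to 5.89%).
Ahcy separated SJL in the same manner. The copies of Ahcy held 45.8 to 57.1% of the summed Ahcy count in SJL livers and under 15% in those of the other strains. In libraries with albumin under 1% of liver the share was 40.1 to 58.6% in SJL (18 libraries) and 9.14 to 18.8% in the other strains (49 libraries), so where liver transcripts were few the share separated SJL as labelled. In 4 of 5 SJL libraries with albumin over 10% of liver it was below every SJL liver, with 12.5% (12.0 to 13.0%) in the visceral library of mouse 57. The subcutaneous library of DBA/2J mouse 34 had 50.7% (49.4 to 52.0%). The shares of the single libraries named here, other than the brown adipose library of mouse 17, lay in or next to the range of livers of a strain other than the labelled one. Others lay between the liver ranges: the median Ahcy copy share of those 5 SJL libraries was 16.3%, and Bhmt-ps1 shares of A/J libraries likewise fell in the gap between the liver ranges. How this came about was not tested. Among livers no A/J or SJL range overlapped that of another strain, these shares do not tell C57BL/6J from DBA/2J, and the liver results below rest on liver libraries alone. The intervals here cover counting error only, and these shares were compared after the values had been seen.

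In liver the members were among the most abundant transcripts. In TPM, transcripts per 1000000, a level that allows for transcript length, Gnmt had a median of 2023 (rank 59 of 56980 genes), Cdo1 1971 (rank 60), Mat1a 1436 (rank 74), Bhmt 1033 (rank 100) and Ahcy 767 (rank 138). Cth (214), Csad (203), Gclc (194), Cbs (156) and Gclm (73.8) were lower, and Gclm still ranked 1343. Not all neighbours in this order were apart. Gnmt exceeded Cdo1 in 19 of 32 livers, Cth exceeded Csad in 17 and Csad exceeded Gclc in 17, whereas Ahcy exceeded Cth in 32 and Cbs exceeded Gclm in 32.
The spread over livers differed more between members than their medians would show. Bhmt ranged from 228 to 3137 TPM and Csad from 44.1 to 607 TPM, the widest of the 10 as a ratio of the highest to the lowest liver. Cbs ranged from 122 to 257, Cth from 126 to 302, Cdo1 from 1531 to 3271, Gclc from 144 to 348 and Gclm from 44.3 to 102 TPM, and Mat1a, Gnmt and Ahcy from 811 to 2374, 1026 to 3369 and 253 to 986. Strain accounted for more of this spread than diet in 9 members, Cbs being the exception. Its share of the variance of log2 CPM was 64.7% for Csad, 61.1% for Gclm and 17.7% for Cbs, with Ahcy above all of these, beside a median of 27.7% over all genes. Diet accounted for 22.2% in Cbs, 22.1% in Cth, 15.2% in Csad, 14.7% in Bhmt and 1.25 to 4.23% in the other 6, beside a median of 7.73%.

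Strains were compared in liver first, because liver carries the pathway. Over the 4 strains, 9 of the 10 members changed by edgeR's quasi-likelihood test at an adjusted p under 0.05, all but Cbs (adjusted p = 0.138), where 53.0% of all 18636 genes tested did so. The sets of high and low members differed between strains, although strains shared some of them. Csad was high and Mat1a low in C57BL/6J, and Cdo1 and Mat1a were high and Csad low in A/J. Bhmt was high and Gclm low in DBA/2J. In SJL Ahcy, Bhmt and Gclc were low, and Csad was high as in C57BL/6J. Cth was low in C57BL/6J and SJL and high in A/J and DBA/2J. Of the 10 members 5 were called in C57BL/6J against the other 3 strains (26.7% of all genes), 7 in A/J (28.5%), 4 in DBA/2J (26.1%) and 6 in SJL (30.1%). These 4 comparisons depend on each other, because each strain is set against the mean of the other 3. A strain far from the rest shifts the values of the other 3 the opposite way. The members' median log2 difference was -0.08, 0.20, 0.10 and -0.11, respectively, and no further from 0 than 0.01 over all genes, so the members as a group were not shifted far in any strain. Reads of non-C57BL/6J mice were aligned with a looser mismatch penalty, so strain and alignment setting cannot be told apart in the C57BL/6J comparison. In bulk tissue, fewer cells of a type and less RNA per cell cannot be told apart either.

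**Figure D1:**
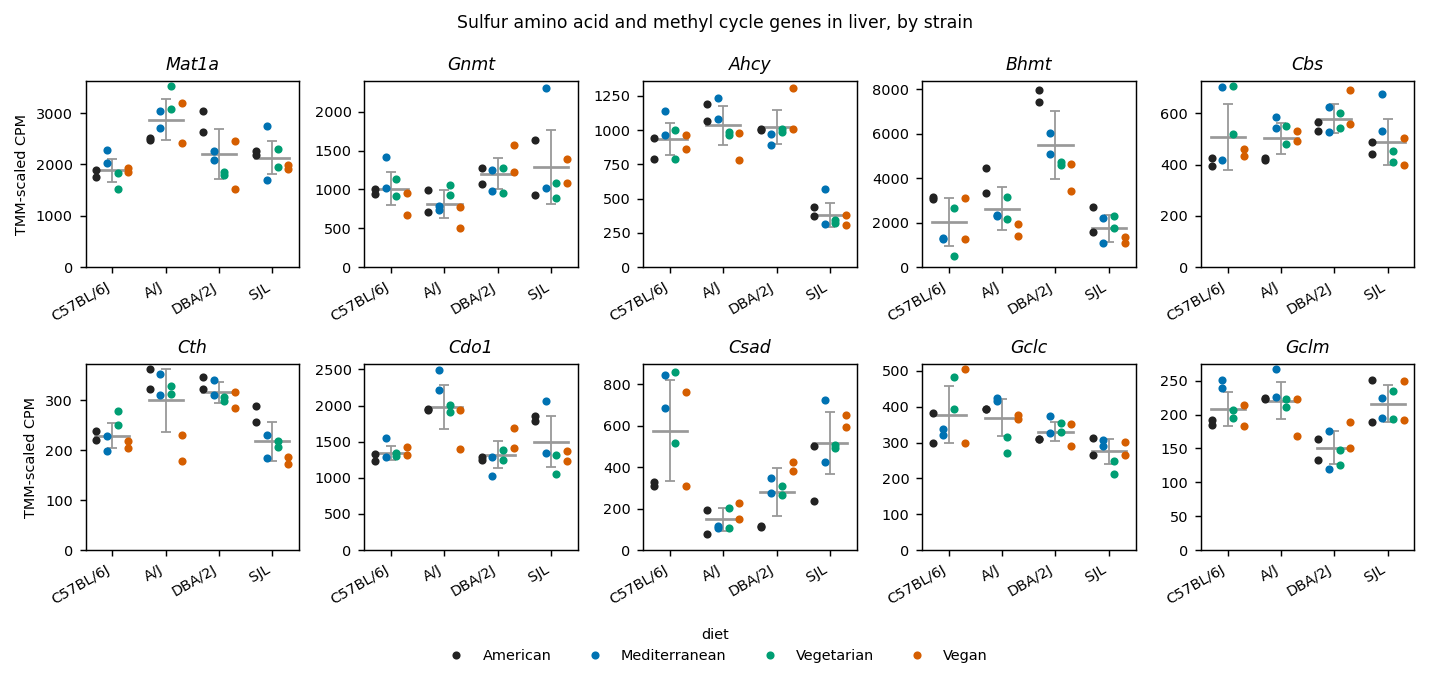
Liver levels of the 10 members by strain, 1 panel per gene, in CPM scaled by the trimmed mean of M values. Each point is a mouse coloured by diet, and grey bars are means ± SD (n = 8). Ahcy in SJL (308 to 572) lies below every mouse of the other strains (784 to 1306), and Bhmt is highest in DBA/2J.

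Among the methyl cycle genes, Mat1a, which makes the methyl donor, ranged from 2415 to 3518 CPM in A/J livers (median 2869) and from 1514 to 2288 in C57BL/6J (median 1868). DBA/2J (1522 to 3033) and SJL (1703 to 2741) lay between, overlapping both. The difference of A/J from the other 3 strains was a log2 of 0.48 (SE 0.0946, adjusted p = 0.000200, edgeR), and that of C57BL/6J was -0.34 (SE 0.0989, adjusted p = 0.0107).
Gnmt, the methyl disposal enzyme, went the other way in A/J. Its levels there ran from 506 to 1057 CPM (median 779), below the medians of C57BL/6J (980), DBA/2J (1240) and SJL (1088), with overlap. The log2 difference of A/J was -0.52 (SE 0.143, adjusted p = 0.00618, edgeR). SJL was higher by 0.37 (SE 0.136, adjusted p = 0.0374), a call that was lost when SJL Mediterranean mouse 53, at 2302 CPM, was left out (0.21).

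Ahcy, which splits S-adenosylhomocysteine, was the only member whose strain groups did not overlap in liver. SJL livers held 308 to 572 CPM (median 359), while C57BL/6J held 790 to 1139, A/J 784 to 1232 and DBA/2J 890 to 1306. Every SJL liver was below every other liver, at 0.382 times the level of the other strains (log2 -1.39, SE 0.0971, adjusted p = 5.32e-13, edgeR).
The difference was smaller once the copies were counted in. Ahcyl stood at 322 to 598 CPM in SJL and at 106 to 177 CPM in the other strains, the reverse of Ahcy. The pseudogene Gm9826 went the opposite way to Ahcyl, at 0.268 to 0.725 CPM in SJL and 10.9 to 22.3 elsewhere. Summed over Ahcy and its copies, SJL held 641 to 1171 CPM (median 750), C57BL/6J 922 to 1311, A/J 901 to 1408 and DBA/2J 1011 to 1507, so the groups overlapped. The summed count was still lower in SJL, at 0.699 times the level of the others (log2 -0.52, SE 0.0907, adjusted p = 4.26e-05, edgeR). The higher Ahcy of C57BL/6J (0.33, adjusted p = 0.00414) and DBA/2J (0.52, adjusted p = 1.98e-05) were not called for the sum (0.05, adjusted p = 0.759, and 0.23, adjusted p = 0.0509), and that of A/J went from 0.53 to 0.24 (adjusted p = 0.0338). Which locus the SJL reads came from cannot be told from counts.

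**Figure D2:**
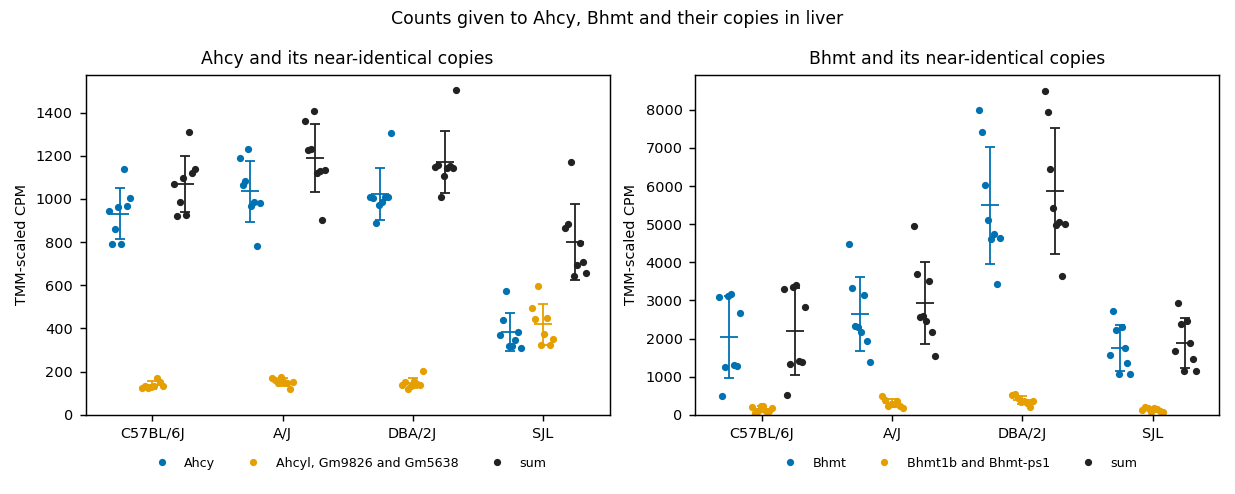
CPM in liver counted to Ahcy and Bhmt, to their near-identical copies, and to both together, by strain. Points are mice, and bars are means ± SD (n = 8). The copies of Ahcy rise in SJL where Ahcy falls, and the sum stays lowest in SJL, with a median of 750 CPM.

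Bhmt, the betaine-dependent remethylation enzyme, was highest in DBA/2J. Its livers held 3434 to 7984 CPM (median 4918), C57BL/6J 484 to 3160 (median 1983), A/J 1384 to 4469 (median 2316) and SJL 1065 to 2711 (median 1653). Every DBA/2J liver was above every C57BL/6J and SJL liver, and the DBA/2J range overlapped that of A/J. DBA/2J stood at 2.60 times the other strains (log2 1.38, SE 0.188, adjusted p = 1.00e-06, edgeR), and SJL was lower by a log2 of -0.79 (SE 0.210, adjusted p = 0.00468). Bhmt-ps1 was nearly confined to A/J liver (71.1 to 219 CPM, against 0.507 to 9.54 in the other strains), and summing the copies left the DBA/2J difference at 1.36.

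In the transsulfuration pathway the 2 steps differed. Cbs, the first step, ran from 392 to 708 CPM in C57BL/6J, 416 to 586 in A/J, 527 to 689 in DBA/2J and 397 to 676 in SJL, with overlap between all 4 strains. Cth, the second, was called in each of the 4 comparisons, which depend on each other. Its medians were 318 CPM in A/J (179 to 363) and 313 in DBA/2J (285 to 346), and 224 in C57BL/6J (198 to 278) and 213 in SJL (172 to 289). Every DBA/2J liver lay above every C57BL/6J liver, and the lowest A/J liver (179 CPM) lay within the SJL range. The log2 differences were 0.37 in DBA/2J (adjusted p = 0.000239), 0.24 in A/J (adjusted p = 0.0135), -0.25 in C57BL/6J (adjusted p = 0.0146) and -0.36 in SJL (adjusted p = 0.000463, all edgeR).

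The taurine branch split in A/J. Cdo1, which oxidises cysteine, was highest in A/J at 1399 to 2499 CPM (median 1946), beside 1232 to 1549 in C57BL/6J, 1023 to 1689 in DBA/2J and 1054 to 2063 in SJL. A/J was higher by a log2 of 0.51 (SE 0.0936, adjusted p = 7.82e-05, edgeR), with overlap. Csad, the next enzyme, was lowest in the same strain, at 74.9 to 229 CPM (median 134), beside 307 to 858 in C57BL/6J (median 601), 111 to 425 in DBA/2J (median 293) and 237 to 723 in SJL (median 504). Every A/J liver was below every C57BL/6J and SJL liver. The log2 difference of A/J was -1.49 (SE 0.214, adjusted p = 2.86e-06), and those of C57BL/6J and SJL were 1.05 (adjusted p = 5.90e-05) and 0.87 (adjusted p = 0.000564, edgeR).

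The 2 subunits of glutamate-cysteine ligase followed different strains. Gclm, the modifier, was low in DBA/2J at 120 to 189 CPM (median 149), beside 182 to 252 in C57BL/6J, 168 to 267 in A/J and 189 to 252 in SJL. The DBA/2J range overlapped the lower part of those of C57BL/6J and A/J, and DBA/2J stood at 0.703 times the others (log2 -0.51, SE 0.0823, adjusted p = 1.32e-05, edgeR). Gclc, the catalytic subunit, had 291 to 375 CPM in DBA/2J, within the range of A/J (271 to 423) and overlapping that of C57BL/6J (299 to 504), and was low in SJL (212 to 314, log2 -0.38, SE 0.0910, adjusted p = 0.00156). Gclc was also higher in C57BL/6J by 0.23 (adjusted p = 0.0476), and Gclm in A/J by 0.22 (adjusted p = 0.0350); neither call held in limma on TPM (0.20 for each) or without the count filter.
Marker genes of cell types also differed by strain. Beside the counts of markers below, 28.5% of all genes were called in either direction in A/J, 26.1% in DBA/2J and 30.1% in SJL. The shares called higher alone are not given here, nor is the direction of the markers not counted. The summed level of 12 hepatocyte markers was 119897 to 160556 TPM in C57BL/6J, 184965 to 226134 in A/J, 149316 to 186479 in DBA/2J and 143095 to 213850 in SJL, with 4 of 12 higher in A/J. Of 8 periportal markers 6 were higher in DBA/2J, although their summed level (3743 to 5680 TPM, median 4765) was close to that of SJL (3943 to 5224, median 4781). Pericentral markers summed to medians of 8816 TPM in A/J, 8648 in SJL, 7615 in DBA/2J and 7594 in C57BL/6J, with overlapping ranges. In SJL 9 of 9 macrophage markers (507 to 1098 TPM, beside 281 to 732 in the other strains), 5 of 8 B and T cell markers and 3 of 6 endothelial markers were higher. Markers of other organs were at low levels that also differed. Pancreatic acinar markers summed to 16.8 to 33.1 TPM in C57BL/6J and 45.3 to 138 elsewhere, without overlap, and the 1 of 6 that passed the count filter, Cela1, was lower in C57BL/6J. Muscle fibre markers reached 1525 TPM in SJL and 815 in the other strains, with 0 of 8 called in any strain comparison. Their part in the members' differences was not tested.

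From mouse to mouse, Gnmt, Ahcy, Cth and Cdo1 varied together in part on the CPM scale. After strain and diet were removed, 7 of all 45 pairs of members passed over the 32 livers (Pearson r, permutation test, adjusted over the 45), and 33 had an r above 0. Ahcy with Cdo1 had the highest r (0.70, permutation p = 1.00e-05, the smallest the resamples can give, adjusted p = 0.000450, rho 0.67, p = 3.00e-05), followed by Gnmt with Ahcy, the use of the methyl donor and the next step (0.68, permutation p = 3.00e-05, adjusted p = 0.000675, rho 0.68, p = 4.00e-05). Cth with Cdo1 had 0.62 (permutation p = 0.000120, adjusted p = 0.00180, rho 0.59, p = 0.000510). Without the 2 livers farthest from the median these r were 0.66, 0.61 and 0.50. The other 4 did not pass by Spearman's rho after adjustment: Gnmt with Cdo1 (0.53), Cbs with Cdo1 (0.47), Ahcy with Cth (0.46) and Bhmt with Gclc (-0.52, and -0.24 without 2 livers). On the log2(TPM + 1) scale 0 of the 45 passed, with r of 0.33 for Gnmt with Ahcy and 0.48 for Cth with Cdo1, so the result holds on 1 scale only. All pairs were tested after 5 pairs set by role.
Among those 5, Gclc and Gclm, the subunits of 1 enzyme, had a Pearson r of 0.06 (permutation p = 0.761) and a Spearman rho of 0.11 (p = 0.538), and r was 0.06 without the 2 livers farthest from the median. Bhmt with Ahcy had 0.31 (permutation p = 0.0832, rho 0.31, p = 0.0885, adjusted p = 0.416 over the 5 pairs, 0.29 without 2 livers). Cbs with Cth, Mat1a with Gnmt and Cdo1 with Csad had r of 0.07 (permutation p = 0.717), 0.08 (p = 0.683) and 0.09 (p = 0.606), rho of 0.07 (p = 0.720), 0.04 (p = 0.839) and 0.13 (p = 0.463), and r of 0.03, 0.26 and 0.25 without 2 livers. None of the 5 passed after adjustment. With strain and diet left in, Bhmt with Ahcy (0.46) and Cdo1 with Csad (-0.43) had an adjusted p of 0.0335, and within a strain only 8 mice are available per pair.
Among the 2 genes most like each member after strain and diet were removed (Pearson r over the same 32 livers, as a description) were Klb for Mat1a (0.79), Qdpr and Ebp for Gnmt (0.92 and 0.91), Ak3 for Ahcy (0.86), Sqstm1 for Cbs (0.83) and Fdx1 for Cth (0.78). They included Fars2 (0.86) and Hebp1 (0.81) for Cdo1, Rab3d (0.71) for Csad, Wrnip1 (0.79) for Gclc and Strap (0.85) for Gclm. The gene nearest to Bhmt was its copy Bhmt1b (0.98), which shares reads with it. No member was among the 2 nearest genes of another.

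The 5 lists of other pathway genes each had a larger share of genes called over strains than the 53.0% of all genes. In liver 10 of 15 other methionine cycle and remethylation genes changed, 6 of 8 methyl transfer genes, 8 of 10 genes of methionine salvage and polyamine synthesis, 7 of 11 genes of cysteine breakdown and sulfide disposal, and 8 of 14 glutathione genes. Targets of NRF2, the factor of the oxidative stress response, changed in 5 of 13, and targets of ATF4, the factor of the amino acid response, in 13 of 15 (edgeR, adjusted p under 0.05).
In A/J, 6 of 10 salvage and polyamine genes fell and none rose (median log2 -0.43), where 13.9% of all genes fell. They were Srm, Odc1, Sms and Amd1, which act in polyamine synthesis, and Mtap and Adi1 of the salvage pathway. Odc1, the first enzyme of polyamine synthesis, ran from 19.7 to 28.4 CPM in A/J and from 49.6 to 85.6 in C57BL/6J, without overlap (log2 -0.87 in A/J and 1.07 in C57BL/6J, adjusted p over strains = 4.71e-11, edgeR). Tpmt, a thiol methyltransferase, ran from 24.7 to 66.7 CPM in C57BL/6J and from 90.1 to 149 in the other 3 strains (log2 -1.19 in C57BL/6J, adjusted p over strains = 1.18e-10, edgeR). Of the 14 other glutathione genes, 3 were called in DBA/2J, all higher, and 4 in SJL, all lower, shares close to the 26.1% and 30.1% of all genes called there.

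Diets were compared next. By edgeR's quasi-likelihood test no member changed in liver between any diet and the American diet, over the 4 diets, or between strains in its diet response (strain by diet), at an adjusted p under 0.05. Few genes of any kind did so: 0.145% of 18636 on the Mediterranean, 0.0% on the vegetarian and 0.113% on the vegan diet, 0.102% over diets and 0.0% for strain by diet. At an unadjusted p under 0.05 the members numbered 3, 2, 3, 4 and 2 in these comparisons. The share of all genes at that threshold is not given here, so these counts cannot be read as an excess. With DESeq2 2 members passed on the vegan diet, Cth (adjusted p = 0.0110) and Csad (0.0240), where 0.622% of all genes did, and 1 passed over diets, Cth (adjusted p = 0.0296, 1.27% of all genes).

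**Figure D3:**
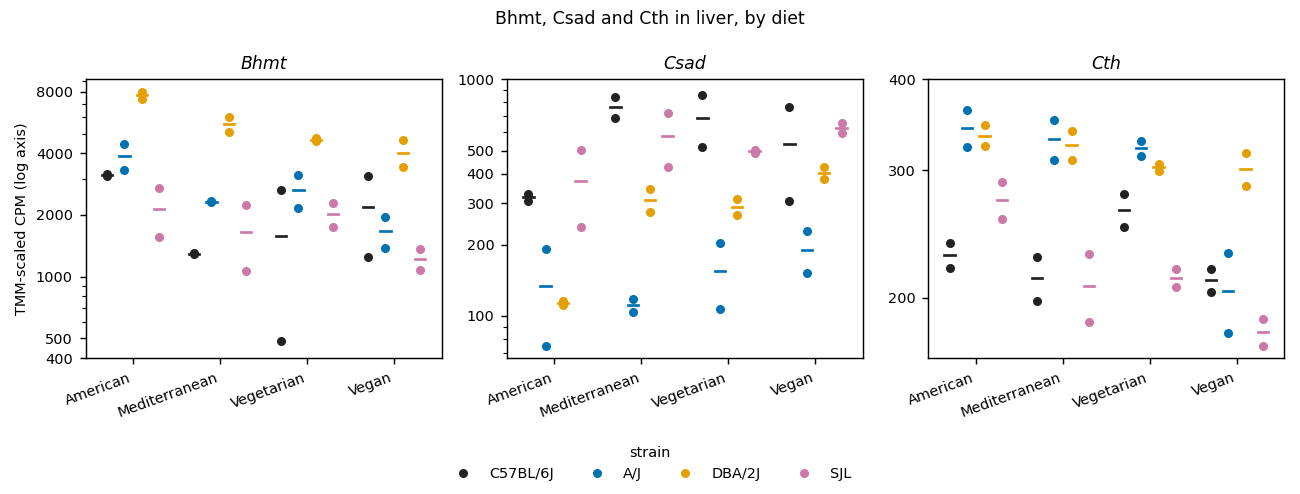
Liver CPM, on log axes, of Bhmt, Csad and Cth by diet. Each point is a mouse coloured by strain, and bars join the means of the 2 mice of a strain. The strain means of Bhmt lie lower, and those of Csad higher except in A/J on the Mediterranean diet, than on the American diet, while single mice and the diet ranges overlap.

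Bhmt, Csad and Cth had the largest differences on the vegan diet. Bhmt ran from 1563 to 7984 CPM on the American diet (median 3236), 1065 to 6024 on the Mediterranean (2264), 484 to 4738 on the vegetarian (2478) and 1076 to 4641 on the vegan diet (1665). These ranges overlap because strains differ. In DBA/2J the mice had 7984 and 7414 CPM on the American diet, 6024 and 5097 on the Mediterranean, 4599 and 4738 on the vegetarian, and 3434 and 4641 on the vegan diet, so all 6 mice on the other diets were below both American mice. In A/J, 4469 and 3312 CPM on the American diet stood beside 2330 and 2302, 2169 and 3151, and 1945 and 1384, again with all 6 below. In C57BL/6J, both American mice were close (3086 and 3160), and the other diets scattered widely (1305 and 1287, 2662 and 484, 1249 and 3111). In SJL the American mice had 1563 and 2711 CPM, beside 2225 and 1065, 2295 and 1743, and 1357 and 1076, so 3 of the 6 lay between the American mice.
The mean was lower than on the American diet in 4 of 4 strains for each of the 3 diets. The log2 differences from the American diet were -0.70 (SE 0.247, adjusted p = 0.179), -0.57 (SE 0.246, adjusted p = 0.906) and -0.85 (SE 0.247, adjusted p = 0.152, edgeR) for Mediterranean, vegetarian and vegan, the last being 0.555 times the American level. The 3 comparisons share the same 8 American livers. The vegan difference was not called over all livers. Leaving out 1 library at a time gave adjusted p from 0.0183 to 0.291, and it passed only without C57BL/6J mouse 16 or 12. Without vegan mouse 16 (3111 CPM) it was -1.10 (adjusted p = 0.0183), and without vegetarian mouse 12 (484 CPM) it was -0.86 (adjusted p = 0.0366).

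Csad stood on the opposite side in the same livers. It ran from 74.9 to 504 CPM on the American diet (median 214), 104 to 846 on the Mediterranean (386), 107 to 858 on the vegetarian (401) and 151 to 762 on the vegan diet (402). In DBA/2J the American mice had 115 and 111 CPM and the mice on the other diets 345 and 274, 311 and 267, and 425 and 380, all above them. In C57BL/6J, 307 and 329 on the American diet stood beside 846 and 687, 516 and 858, and 762 and 307. In A/J, 192 and 74.9 on the American diet stood beside 118 and 104, 107 and 203, and 229 and 151, and in SJL 504 and 237 beside 723 and 426, 491 and 505, and 595 and 652. Mice on the American and other diets thus overlapped in C57BL/6J, A/J and SJL, while both vegan SJL mice were above both American ones.
The strain means were higher than on the American diet in 3 of 4 strains on the Mediterranean diet and in 4 of 4 on the vegetarian and vegan diets. The log2 differences were 0.76 (SE 0.241, adjusted p = 0.146), 0.73 (SE 0.239, adjusted p = 0.683) and 0.93 (SE 0.240, adjusted p = 0.0996, edgeR), the vegan level being 1.91 times the American. The ratio of vegan to American means was 3.56 in DBA/2J, 1.68 in C57BL/6J, 1.42 in A/J and 1.68 in SJL. Leaving out 1 library at a time gave adjusted p from 0.0224 to 0.230 for the vegan difference. It passed only without C57BL/6J vegan mouse 16 (1.05, adjusted p = 0.0224) and without A/J American mouse 17 (1.18, adjusted p = 0.0228).

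Cth ran from 172 to 317 CPM on the vegan diet and from 220 to 363 on the American. The separation lay in A/J, with 363 and 323 on the American and 179 and 231 on the vegan diet, and in SJL, with 289 and 257 against 187 and 172. In DBA/2J (324 and 346 against 317 and 285) and C57BL/6J (220 and 238 against 220 and 204) the mice of the diets were closer, at vegan to American ratios of 0.899 and 0.924, beside 0.597 in A/J and 0.658 in SJL. Over all livers the log2 difference of the vegan from the American diet was -0.40 (SE 0.0923, adjusted p = 0.0691, edgeR), which was not called. Leaving out 1 library at a time gave adjusted p from 0.0326 to 0.165. It passed only without C57BL/6J vegan mouse 13, 16 or vegetarian mouse 12. The log2 difference was then -0.43, -0.41 and -0.40, with edgeR adjusted p of 0.0451, 0.0326 and 0.0464.
Cbs, the step before Cth, had its largest difference on another diet. It ran from 418 to 701 CPM on the Mediterranean and 392 to 565 on the American diet (log2 0.33, SE 0.108, adjusted p = 0.149, edgeR), with the mean higher in 4 of 4 strains. The median log2 difference of the 10 members was 0.08, -0.07 and -0.07 on the Mediterranean, vegetarian and vegan diets, beside -0.003, 0.006 and 0.006 over all genes.

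None of the other pathway genes, the NRF2 targets or the ATF4 targets was called in a liver diet comparison by edgeR (0 of 15, 8, 10, 11, 14, 13 and 15 genes, in the order given above), although up to 6 of a list had an unadjusted p under 0.05. That count too lacks the share of all genes at the same threshold and cannot be read as an excess. The hepatocyte marker sum was 120657 to 201842 TPM on the American and 121418 to 226134 on the vegan diet. Of the cell type lists, the macrophage markers alone had calls, with Csf1r, C1qa and C1qb higher on the Mediterranean diet (median log2 of 9 markers 0.63); their part in the members' levels was not tested. Outside liver, no member was called over diets by edgeR in muscle, brown, subcutaneous or visceral adipose tissue, where 0.0%, 0.421%, 0.0% and 0.0% of genes were, and 0 members had an unadjusted p under 0.05 in any of the 4.

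Across tissues, all 10 members were higher in liver than in each other tissue by edgeR, where 40.3% of genes were higher in liver than in muscle, 38.3% than in brown, 38.8% than in subcutaneous and 40.3% than in visceral adipose tissue. The size of the gap sorted the members into those of liver and those shared with adipose tissue. Because albumin differed between libraries, levels are given for the 11 muscle, 24 brown, 22 subcutaneous and 10 visceral libraries with albumin under 1% of liver.

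**Figure D4:**
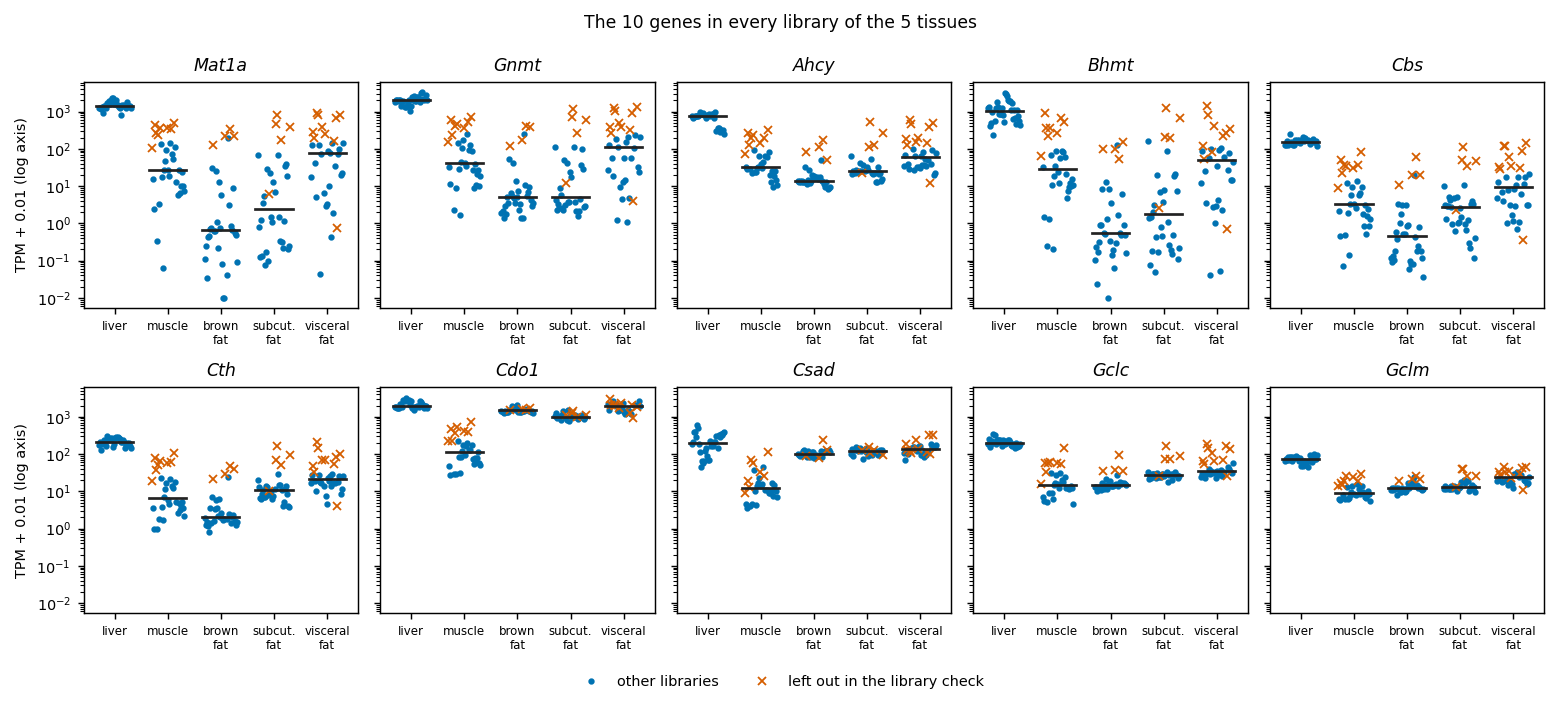
TPM of the 10 members in 5 tissues (log axis, TPM + 0.01), 1 point per library, with the median as a black bar. Crosses are libraries left out of the reduced set. Cdo1 and Csad keep adipose levels near those of liver, whereas Mat1a, Gnmt, Bhmt and Cbs scatter over orders of magnitude outside liver.

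Cdo1 and Csad kept adipose levels closest to those of liver among the 10 members. For Cdo1, the differences also depended on the scale. Its median TPM was 1409 in brown (71.5% of the liver median), 992 in subcutaneous (50.3%) and 1648 in visceral adipose tissue (83.6%), and 50.4 in muscle (2.56%). The ratio of liver to tissue that edgeR fitted to TMM-scaled counts over all libraries was 1.93 in brown, 2.64 in visceral, 5.14 in subcutaneous adipose tissue and 14.6 in muscle; the visceral difference was not called by limma on TPM (log2 0.22). Csad, the partner of Cdo1 in taurine synthesis, followed it, with medians of 99.3 TPM in brown (49.0% of liver), 125 in subcutaneous (61.4%), 129 in visceral (63.6%) and 6.83 in muscle (3.37%).
Gclm kept 16.7, 17.0 and 24.7% of its liver level in brown, subcutaneous and visceral adipose tissue, and Gclc 7.30, 13.4 and 15.2%. In muscle both were under 10% (9.12% and 4.54%). Ahcy, which every methylating cell needs, stood at 13.3 TPM in brown, 23.5 in subcutaneous, 31.8 in visceral adipose tissue and 23.0 in muscle, 1.73 to 4.15% of its liver median. Cth had 1.82 TPM in brown and 8.06 and 11.9 in subcutaneous and visceral tissue.
Mat1a, Gnmt, Bhmt and Cbs had medians of 0.0362 to 1.03% of liver in these libraries, and over all libraries their levels followed albumin, with Spearman correlations of 0.85 to 0.99 within a tissue (32 libraries each, which share the liver transcripts described above). The other members also followed albumin in muscle, from 0.76 for Csad to 0.97 for Cth, with Cdo1 at 0.96. In adipose tissue the correlation was 0.69 to 0.93 for Cth, 0.43 to 0.92 for Ahcy, 0.64 to 0.83 for Gclc and 0.38 to 0.64 for Gclm. For Cdo1 in adipose tissue it was 0.19 to 0.42, and for Csad 0.0011 to 0.30. Whether the low levels of Mat1a, Gnmt, Bhmt and Cbs outside liver come from the tissue was not tested. The same holds for the other members where they followed albumin.

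Outside liver the number of members that differed by strain depended on the libraries used. Over strains, 5 members were called in muscle (45.5% of genes), 2 in brown (56.8%), 3 in subcutaneous (65.6%) and 2 in visceral adipose tissue (40.1%), by edgeR. In the reduced set these were 9 in muscle (57.1% of genes), as many as in liver, 4 in brown (55.1%), 2 in subcutaneous (60.9%) and 3 in visceral tissue (34.0%). Leaving out 1 library at a time gave 1 to 8 in muscle and 1 to 7 in subcutaneous tissue. In muscle, 9 members were lower in SJL (median log2 -2.62, where 16.3% of genes were lower), but albumin there was 0.291 to 2.20% of liver in SJL and up to 42.8% in the other strains, and in the reduced set only Ahcy and Gclm were called, both lower (37.4% of genes called). In subcutaneous tissue 6 members were higher in DBA/2J (25.1% of genes higher). In the reduced set only Gclm and Cth were called (39.2% of genes called), and Gnmt, Cbs and Gclc changed sign (from 3.24, 2.86 and 1.01 to -0.49, -0.28 and -0.06).

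Gclm in DBA/2J showed opposite strain differences in liver and adipose tissue. In subcutaneous tissue DBA/2J held 16.3 to 40.4 TPM (median 19.8), C57BL/6J 11.3 to 13.8, A/J 10.4 to 14.0 and SJL 9.57 to 25.3. Every DBA/2J library was above every C57BL/6J and A/J library, whereas in liver DBA/2J was the lowest strain. The log2 difference in subcutaneous tissue was 1.02 (adjusted p = 4.39e-05, edgeR) and 0.54 in the reduced set (adjusted p = 4.84e-06). In brown adipose tissue DBA/2J held 12.6 to 23.5 TPM, beside 8.19 to 12.6 in C57BL/6J, 9.51 to 19.4 in A/J and 10.7 to 26.3 in SJL (log2 0.37, adjusted p = 0.0318; 0.39 and 0.00189 in the reduced set, edgeR). In visceral tissue the difference was -0.02 (adjusted p = 0.973) over all libraries and 0.51 (adjusted p = 0.000886) in the reduced set.
The difference between tissues was itself tested in 1 edgeR model. The DBA/2J difference in liver minus that in subcutaneous tissue was a log2 of -1.45 (SE 0.267, adjusted p = 1.39e-05, where 17.4% of genes were called), and minus that in brown tissue -0.86 (SE 0.265, adjusted p = 0.0133, 17.3% of genes). In the reduced set they were -1.01 (adjusted p = 1.67e-08) and -0.88 (adjusted p = 9.16e-08). Gclc gave no such call for DBA/2J (-0.95, adjusted p = 0.146, and -0.05, adjusted p = 0.976). The mouse was not a term in this model, although most mice gave both tissues.

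**Figure D5:**
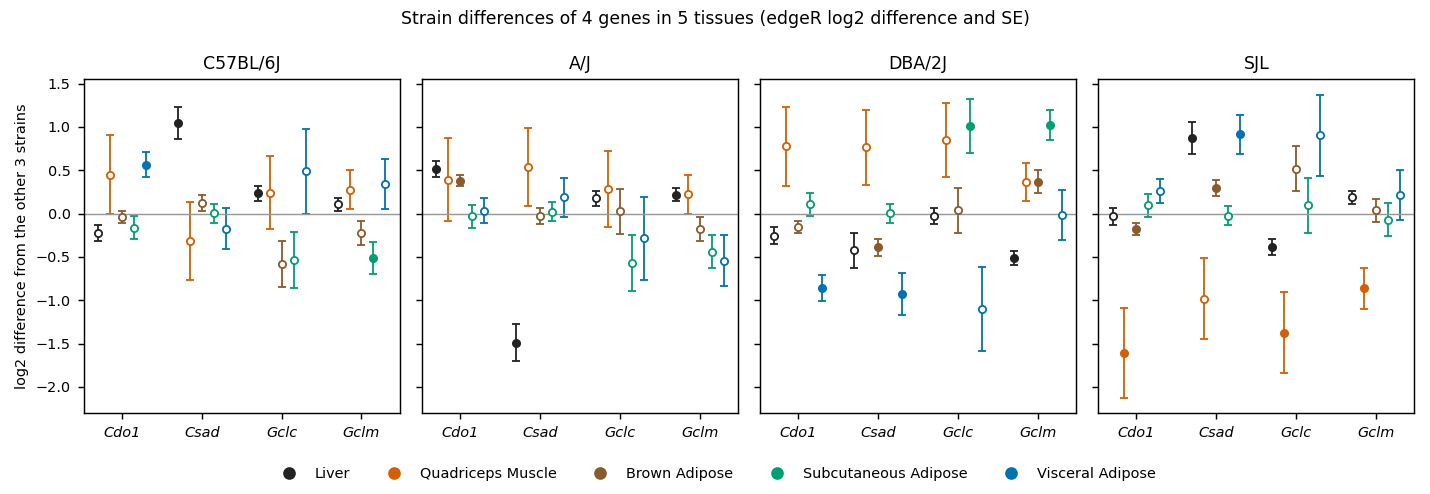
Log2 difference of each strain from the other 3 (± SE, edgeR) for Cdo1, Csad, Gclc and Gclm in 5 tissues, with filled points called at an adjusted p under 0.05. Gclm in DBA/2J is lower in liver (-0.51) and higher in subcutaneous tissue (1.02), and the low Csad of A/J (-1.49) is seen in liver.

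Csad in A/J differed from the other strains in liver and had no call in the 4 other tissues. The liver difference exceeded that in brown tissue by a log2 of -1.48 (adjusted p = 0.000571), in subcutaneous by -1.50 (adjusted p = 0.000619), in visceral by -1.69 (adjusted p = 0.000101) and in muscle by -2.05 (adjusted p = 3.80e-06, edgeR), where 16.1, 11.5, 9.69 and 9.4% of genes were called. The high Csad of C57BL/6J liver likewise exceeded its difference in muscle (1.31, adjusted p = 0.00183), subcutaneous (1.03, adjusted p = 0.0265) and visceral tissue (1.23, adjusted p = 0.00587); for brown tissue the value was 0.90 (adjusted p = 0.0630, edgeR).
In adipose tissue itself, Csad and Cdo1 were low in DBA/2J visceral tissue. Cdo1 held 1156 to 1520 TPM there, C57BL/6J 1506 to 2982, A/J 1440 to 2401 and SJL 935 to 2650, and the log2 difference was -0.86 (adjusted p = 0.000111; -0.77 and 0.000491 in the reduced set, edgeR). Csad held 82.1 to 117 TPM in DBA/2J and 98.4 to 331 in SJL, and the lowest visceral library (69.4 TPM) was of neither strain. In TMM-scaled CPM it held 96.5 to 153 in DBA/2J, 103 to 276 in C57BL/6J, 127 to 399 in A/J and 127 to 691 in SJL, with overlap. The log2 difference of Csad in DBA/2J was -0.93 (adjusted p = 0.00526, edgeR), and -0.61 in the reduced set (adjusted p = 0.000970). In SJL it was 0.91 (adjusted p = 0.00482; 0.51 and 0.0259 in the reduced set), and without SJL American mouse 49 it was 0.59 and not called.
Cdo1 in A/J was higher in brown adipose tissue as in liver, with 1529 to 2073 TPM beside 1259 to 1498 in C57BL/6J, without overlap between these strains. The ranges of DBA/2J (1305 to 1640 TPM) and SJL (1290 to 1696 TPM) overlapped that of A/J. The log2 difference from the other 3 strains was 0.38 (adjusted p = 4.44e-05, edgeR) in brown tissue and 0.51 in liver, and the difference between these was 0.11 (SE 0.308, adjusted p = 0.880). Csad in brown tissue was lower in DBA/2J (-0.39, adjusted p = 0.00193) and higher in SJL (0.29, adjusted p = 0.0191), the latter not in the reduced set (0.11, adjusted p = 0.285).
Ahcy in SJL muscle held 10.7 to 25.1 TMM-scaled CPM, below every muscle library of the other strains, the lowest of which had 28.8 (log2 -2.52, adjusted p = 0.000644, edgeR), and the sum with its copies was lower by -1.95 (adjusted p = 0.00327). These sizes are over all libraries, where albumin was 0.291 to 2.20% of liver in SJL muscle and up to 42.8% in DBA/2J. Ahcy in muscle followed albumin (Spearman correlation 0.87 over 32 libraries). In the reduced set Ahcy was still called lower in SJL muscle, at a size not given here. The part of liver transcripts in the sizes over all libraries was not tested further. On the TPM scale the ranges met, with 9.62 to 25.6 in SJL and at least 23.0 in the other strains. As in liver, the copies held 35.5 to 52.4% of the sum in SJL muscle.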

How the data were processed

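Poly(A) RNA of 160 libraries was sequenced as paired 150-base reads from a stranded kit, per the labels' protocols and the series' design text. The authors trimmed reads with Trim Galore, aligned them with HISAT2 to GRCm39 with a relaxed mismatch penalty for the 3 strains other than C57BL/6J, and counted them with HTSeq using fractional assignment, per the series' design text. The deposited estimated counts are therefore not all whole (74.4% of values above 0 are, within 1e-06) and were rounded before testing. The authors also deposited TPM values; the steps behind them, versions of the tools, the gene annotation and whether counting used strand were not given in the sources used here. Relaxed mismatches and fractional assignment bear most on Ahcy and Bhmt, whose copies share reads with them. Symbols came from GENCODE vM39, which matched 56236 of 56980 identifiers, and promoter and copy sequences were read from the GRCm39 genome at its canonical transcripts.

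Counts were tested with edgeR 4.0.16 (R 4.3.3), using robust quasi-likelihood fits, trimmed mean of M values scaling and filterByExpr (minimum count 10, minimum total 15), in each tissue with strain and diet as additive terms and all 32 libraries. Strain by diet was tested in a model of the 16 combinations, and tissue comparisons and strain differences between tissues in models over all libraries. Calls are Benjamini-Hochberg adjusted p under 0.05 over all genes tested. Alternatives were DESeq2 1.42.0, limma 3.58.1 on log2(TPM + 1) for genes with a mean TPM of at least 1, other scaling, no filter, the reduced set, an albumin covariate and leaving out each library; the older quasi-likelihood method, the summed copies, the differences between tissues and the test of all 45 member pairs were added after seeing the data. Copies were genes with at least 90% identity over at least 1000 bases. The liver fit was tested on simulated counts. Between the 2 libraries of a combination in a tissue the mean chi-square per gene was at least 11.8, so neither is a copy of the other. Libraries of different combinations or tissues were not compared in this way. The 2 mice of a combination are separate animals.

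The members and gene lists were chosen with earlier results of these data known. Named genes are the 10 members, up to 4 pathway genes with the smallest adjusted p per liver comparison, and the 2 genes nearest to each member among 10165 with a mean liver CPM of at least 5, not all of which are reported here; Srm, Sms, Amd1 and Adi1, and the macrophage markers, were named after their values were seen, as were the libraries named for their copy shares. Tissues of 1 mouse pair by its number in the labels: residuals of 308 same-mouse pairs of libraries had a median correlation of 0.0444, and 9932 pairs of different mice -0.00193. Mouse is a block in an alternative of the tissue comparisons.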

Additional observations from a re-analysis of the deposited data

Results flagged for a closer look

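Of 80 groups of 8 livers (10 members by 4 strains and 4 diets), 3 held a library whose gap to the next value, over the group's range, exceeded Dixon's 95% critical value, where chance gives about 1 in 20. Gnmt stood at 2302 CPM in SJL mouse 53 among the Mediterranean livers, where the next value was 1419 and the lowest 734. Ahcy stood at 1306 CPM in vegan mouse 48 among the DBA/2J livers (next 1010, lowest 890). Gclc stood at 504 CPM in C57BL/6J mouse 13 among the vegan livers (next 376, lowest 266).

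In 3 comparisons of 2 members a strain differed from the other 3 in opposite directions in liver and another tissue, by a test of the difference in edgeR. They were picked by sign and call from the comparisons of every member, strain and other tissue. The share of all genes with such a pattern is not given here, so the count cannot be read as a trait of the members. For Gclm in DBA/2J, liver minus brown adipose tissue was a log2 of -0.86 (adjusted p = 0.0133) and liver minus subcutaneous tissue -1.45 (adjusted p = 1.39e-05); both held in the reduced set. For Gnmt in SJL, liver minus muscle was 3.61 (0.37 in liver and -3.21 in muscle, adjusted p = 0.0234), and in the reduced set 1.91 (adjusted p = 0.113). Gnmt in muscle followed albumin with a Spearman correlation of 0.95 over 32 libraries, and albumin in SJL muscle did not exceed 2.20% of liver; the part of liver transcripts in this difference was not tested further.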

How the results depend on the processing

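Of 229 values under planned or added alternatives other than leaving out a library, 211 kept the count of called members within 1.5 times; the cause of each change below was not tested. Liver over diets went from 0 members to 1 in the 16-combination model and 1 in DESeq2, and vegan against American from 0 to 1 and 2. Muscle over strains went from 5 to 1 without filter, 2 in the 16-combination model, 1 in limma on TPM, 9 in DESeq2, 9 in the reduced set and 3 with an albumin covariate. Brown adipose tissue over strains went from 2 to 4 in the reduced set, and subcutaneous from 3 to 5 in the 16-combination model and 6 in DESeq2. Strain by diet, 0 in edgeR, was 3 in brown, 1 in subcutaneous and 2 in visceral tissue by DESeq2. Member pairs went from 0 to 2 without removal of strain and diet, and to 7 over all 45 pairs. In DBA/2J subcutaneous tissue the reduced set turned Gnmt to -0.49, Cbs to -0.28 and Gclc to -0.0576.

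Leaving out 1 library at a time gave 9 to 10 members over strains in liver, 1 to 8 in muscle, 2 to 3 in brown, 1 to 7 in subcutaneous and 2 to 2 in visceral tissue, and in liver 4 to 6 in C57BL/6J, 5 to 7 in A/J, 4 to 6 in DBA/2J and 5 to 7 in SJL. Vegan against American gave 0 to 3, and every other diet or strain by diet count stayed at 0 to 0. Subcutaneous counts fell to 1 without DBA/2J mouse 34 or 38, and rose to 7 without SJL mouse 64. With a replicate block for the mouse, each tissue comparison stayed at 10 members. No paired analysis was possible because, within a tissue, each mouse has 1 strain and 1 diet and so no groups share mice. With 2 mice a combination, the design limits diet differences within a strain, which have no call for any member, and depth does not limit the liver values, where the members lie far above the count filter.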
